A study of Mus musculus with 10 samples.

Results

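The genes described here encode 9 secreted ADAMTS proteases of the vessel wall, Adamts1, Adamts4, Adamts5, Adamts7, Adamts8, Adamts9, Adamts10, Adamts12 and Adamts15. They were chosen by symbol from the 55453 gene symbols of the deposited count table. Messenger RNA was sequenced from the aortae of 5 young male C57BL/6 mice, aged 14.5 weeks, and 5 old male C57BL/6 mice, aged 92.5 weeks, with 1 library per mouse. The mice of both ages carried no engineered allele and received no agent that the labels name, and they were killed at the same time. The aortae had been freed of surrounding fat and homogenized whole, so that the values are averages over all cells of the wall, and no female mice were included. In such bulk samples fewer cells of a type and less RNA per cell cannot be told apart.

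ADAMTS enzymes are zinc metalloproteases that carry thrombospondin type repeats and are released into the extracellular matrix after removal of a propeptide. A branch (Adamts1, Adamts4, Adamts5, Adamts8, Adamts9 and Adamts15) is known for cleaving the large hyaluronan-binding proteoglycans versican and aggrecan, which swell the space between the elastic lamellae of the artery. Adamts7 and Adamts12 cleave cartilage oligomeric matrix protein, and Adamts10 binds fibrillin microfibrils. The activity of some of these enzymes is held in check by the tissue inhibitor Timp3 and by uptake through the receptor Lrp1.

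All members share a zinc-binding catalytic site, which is shown because it could be compared base by base among them. Genes of other metalloproteases were not compared, so whether the site sets the members apart from these was not tested. The coding sequences of the site, 36 bases in each gene, were read from GENCODE M21 transcripts (GRCm38) and are given 5′ to 3′, with the codons of the 3 zinc-binding histidines in capitals.
Adamts1: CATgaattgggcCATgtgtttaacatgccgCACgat
Adamts9: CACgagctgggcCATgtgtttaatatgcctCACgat
Adamts4: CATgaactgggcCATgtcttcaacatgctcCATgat
Adamts15: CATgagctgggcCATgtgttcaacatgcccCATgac
Adamts8: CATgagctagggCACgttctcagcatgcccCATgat
Adamts5: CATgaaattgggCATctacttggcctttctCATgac
Adamts7: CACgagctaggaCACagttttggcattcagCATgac
Adamts12: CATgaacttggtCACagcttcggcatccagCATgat
Adamts10: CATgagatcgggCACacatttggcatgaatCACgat

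Of the 36 bases, 15 were the same in all 9 genes. The sites of Adamts4 and Adamts15 shared 32 bases, those of Adamts1 and Adamts9 shared 31, and those of Adamts7 and Adamts12 shared 28. Adamts5 stood apart from the other proteoglycan-cleaving members, with 20 to 24 bases shared with any other member and the most with Adamts10. An intron divided the site in every member. It followed base 10 in 5 members (Adamts1, Adamts4, Adamts5, Adamts8 and Adamts15) and base 17 in the other 4 (Adamts7, Adamts9, Adamts10 and Adamts12). Adamts9 thus shared the most bases with Adamts1 but had its exon boundary where Adamts7, Adamts10 and Adamts12 have it, and its transcript had 40 exons, against 8 or 9 in the other proteoglycan-cleaving members.

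The comparison of old with young aortae addressed which genes change with arterial aging. Between 19640401 and 22886153 reads per library were counted on genes, and the groups overlapped in depth. Mitochondrial transcripts took 11.0% of the counts in old mouse 2 and at most 6.51% in the other 9 mice. Smooth muscle markers were high in every library, with a level summed over 6 genes of 33586 to 41592 CPM, counts scaled to equal library size.

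Adamts4 and Adamts12 were lower in old aortae, and none of the 9 genes was called higher. A gene was called at a Benjamini-Hochberg adjusted p below 0.05 in edgeR's quasi-likelihood test over all 14614 tested genes. By that rule 2 of 9 members were called lower, against a background of 4.99% of tested genes called lower, 6.48% called higher and 11.5% called in either direction. The same 2 members were those whose young and old mice did not overlap, which was the case for 4.55% of tested genes with old mice lower, 5.37% with old mice higher and 9.92% in all. The fold change was negative in 8 of 9 members, against 49.2% of tested genes, and positive only in Adamts8. Over the 9 members the median log2 fold change was -0.26, against 0.00339 over all tested genes. Since the members share the same 10 mice, these counts are descriptions of the list.

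**Figure D1:**
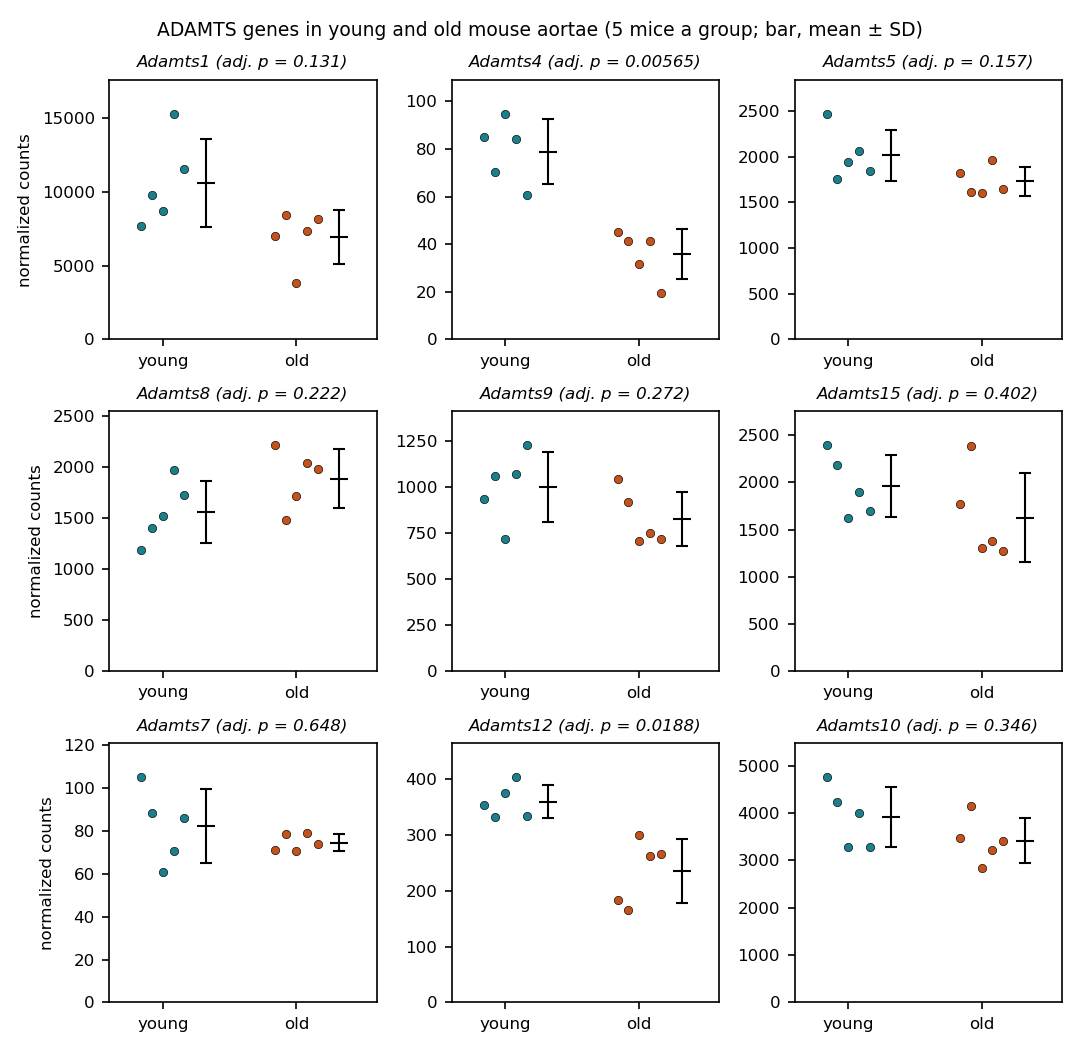
Normalized counts (counts divided by size factors, y axis from 0) of the 9 ADAMTS genes in each of 5 young and 5 old aortae, 1 point per mouse, with the mean and SD beside each group and edgeR's adjusted p above each panel. The old mice lie below all young mice for Adamts4 and Adamts12, whereas the groups overlap in the other 7 panels.

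Adamts4, an aggrecan- and versican-cleaving enzyme that is weakly expressed in this tissue, showed the largest change among the members. The gene lies on the plus strand at chr1:171250421-171260637 (GRCm38), and its zinc site is divided between exons 3 and 4 of 9. Normalized counts were 84.9, 70.4, 94.7, 84.0 and 60.5 in young mice 1 to 5. In old mice 1 to 5 they were 45.0, 41.4, 31.7, 41.5 and 19.4. The highest old mouse was below the lowest young mouse, and old mouse 5 was the lowest of all. The mean fell from 78.9 ± 13.5 to 35.8 ± 10.4 (SD, n = 5), with a log2 fold change of -1.13 (SE 0.22, 95% confidence interval -1.61 to -0.65, edgeR adjusted p = 0.00565). The smallest raw count was 20, the lowest of any member.

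Adamts12, a protease of cartilage oligomeric matrix protein, was the other member that fell. It lies on the plus strand at chr15:11064790-11349231, with the zinc site divided between exons 7 and 8 of 24 by an intron of 14003 bases. Young mice 1 to 5 had 354, 332, 375, 404 and 333 normalized counts. Old mice 1 to 5 had 184, 166, 300, 261 and 266. Every old mouse was below every young mouse, and within the old group mice 1 and 2 were lower than the other 3. The mean fell from 359 ± 30.3 to 235 ± 57.7 (SD, n = 5). The log2 fold change was -0.60 (SE 0.15, 95% confidence interval -0.92 to -0.28, edgeR adjusted p = 0.0188). The call was lost without young mouse 4, the highest of the young mice (log2 fold change -0.56, adjusted p = 0.0519), and was kept without old mouse 2 (-0.50, adjusted p = 0.0257). The young mice were more alike in this gene than in any other member, with a coefficient of variation of 8.43%.

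Adamts1, the member with the highest level, encodes an enzyme that cleaves versican and aggrecan and is known as an early response gene in many cells. It lies on the minus strand at chr16:85793827-85803113. Normalized counts were 7671, 9763, 8699, 15270 and 11519 in young mice 1 to 5. In old mice they were 6985, 8409, 3851, 7356 and 8139. Young mouse 4 was the highest and old mouse 3 the lowest of all mice, and 3 of 5 old mice were below all young mice, so that the groups overlapped. The means were 10584 ± 2981 and 6948 ± 1824 (SD, n = 5), and the log2 fold change of -0.60 equalled that of Adamts12 to 2 decimals. With a larger standard error (0.23, 95% confidence interval -1.12 to -0.08), the edgeR adjusted p was 0.131, and the gene was not called. Under limma-voom with sample quality weights, which gives less weight to libraries that deviate more, it passed (log2 fold change -0.64, adjusted p = 0.0314).

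Adamts5, an aggrecan-cleaving enzyme, is the neighbour of Adamts1 on the same strand at chr16:85856173-85901828. Its normalized counts were 2469, 1758, 1937, 2067 and 1838 in young mice and 1823, 1617, 1601, 1962 and 1642 in old mice. The groups overlapped in a narrow range, with a log2 fold change of -0.21 (SE 0.09, 95% confidence interval -0.41 to -0.01, edgeR adjusted p = 0.157). Without young mouse 1, the highest, the log2 fold change was -0.13 (edgeR adjusted p = 0.262). Adamts1 and Adamts5 were the members, besides those called, with an unadjusted p below 0.05, which held with a lower level in old mice for 12.6% of tested genes and in either direction for 26.7%.

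Adamts8, known as an inhibitor of vessel growth, and Adamts15, a versican-cleaving enzyme, are neighbours on opposite strands of chromosome 9. Adamts8 (plus strand, chr9:30942562-30963838) had 1186, 1404, 1520, 1975 and 1729 normalized counts in young mice and 2216, 1479, 1721, 2043 and 1987 in old mice. Old mice 1, 4 and 5 were above all young mice. The log2 fold change was 0.28 (SE 0.14, 95% confidence interval -0.02 to 0.59, edgeR adjusted p = 0.222), the only positive one. Exons of the noncoding gene Gm29724 overlap 10.6% of its exonic sequence, and the strand setting of the counting is not given in the sources used here.

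Adamts15 (minus strand, chr9:30899155-30922452) had 2393, 2187, 1627, 1899 and 1696 normalized counts in young mice and 1768, 2389, 1302, 1382 and 1276 in old mice. Old mouse 2 was close to the highest young mouse, whereas old mice 3 to 5 were below all young mice. The log2 fold change was -0.26 (SE 0.18, 95% confidence interval -0.67 to 0.14, edgeR adjusted p = 0.402). Without old mouse 2 it was -0.45, at an adjusted p of 0.0550, the smallest of the 20 alternatives.

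Adamts9, which cleaves versican and has a role in secretory transport, lies on the minus strand at chr6:92772699-92943492. Young mice had 933, 1060, 718, 1072 and 1227 normalized counts, and old mice had 1044, 916, 707, 749 and 718. Young mouse 3 lay among the 3 lowest old mice, and the log2 fold change was -0.27 (SE 0.15, 95% confidence interval -0.59 to 0.05, edgeR adjusted p = 0.272). Exons of A730049H05Rik and Gm15737 overlap 12% of the exonic sequence.

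Adamts7, the closest relative of Adamts12 among the members, lies on the plus strand at chr9:90163069-90208071. Young mice had 105, 88.6, 60.8, 70.5 and 86.1 normalized counts, and old mice had 71.0, 78.5, 70.8, 79.1 and 73.9. All old mice lay within the range of the young mice, with a coefficient of variation of 5.31% against 20.9%. The log2 fold change was -0.13 (SE 0.16, 95% confidence interval -0.47 to 0.21, edgeR adjusted p = 0.648). It ranged from -0.22 to -0.03 when a mouse was left out, and was -0.03 without young mouse 1.

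Adamts10, which associates with fibrillin in microfibrils, lies on the plus strand at chr17:33524204-33553782. Its normalized counts were 4762, 4235, 3286, 3993 and 3281 in young mice and 3477, 4139, 2831, 3213 and 3412 in old mice. The groups overlapped over most of their range, and the log2 fold change was -0.19 (SE 0.12, 95% confidence interval -0.45 to 0.07, edgeR adjusted p = 0.346). Without young mouse 1, the highest, it was -0.11 (edgeR adjusted p = 0.552).

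Levels of different genes were compared per kilobase of exon, in TPM, counts divided by exonic length and scaled to the same total in each library. In young aortae Adamts1 stood first with 320 ± 91.0 TPM (SD, n = 5). Adamts10 followed at 75.9 ± 12.9, Adamts8 at 54.2 ± 10.5, Adamts15 at 30.3 ± 5.22 and Adamts5 at 29.9 ± 4.34 TPM. Adamts9 (10.7 ± 2.05 TPM), Adamts12 (5.27 ± 0.45), Adamts4 (2.63 ± 0.44) and Adamts7 (2.10 ± 0.45) were the least abundant. The ranges of Adamts10 and Adamts8, of Adamts15 and Adamts5, and of Adamts4 and Adamts7 overlapped, whereas the other neighbours in this order were separate. In old aortae Adamts1 was again first, at 207 ± 52.8 TPM, and Adamts10 and Adamts8 were level at 65.2 ± 6.92 and 65.0 ± 11.8 TPM. Adamts4 was last in the old group at 1.17 ± 0.34 TPM, below Adamts7 (1.88 ± 0.12) in all 5 old mice, whereas it was above Adamts7 in 4 of 5 young mice. Adamts1 made up 50.4% to 66.9% of the summed level of the 9 genes in young mice and 40.2% to 56.0% in old mice.

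**Figure D2:**
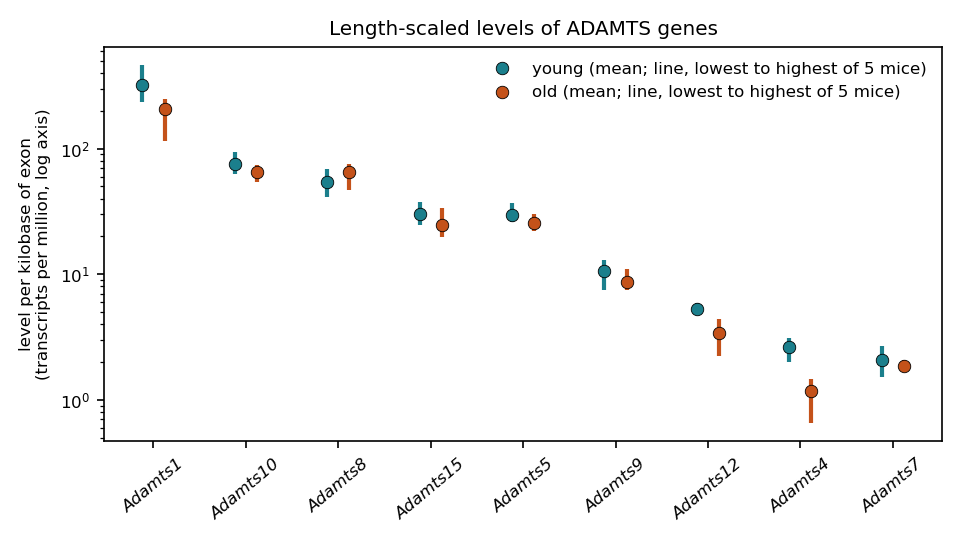
Length-scaled levels (TPM, log axis) of the 9 genes in order of their mean in young aortae, with points for the mean and lines from the lowest to the highest of 5 mice in each age group. Adamts1 lies above all other members in both groups, and Adamts4 moves from 2.63 in young to 1.17 in old aortae, below Adamts7.

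Ratios of 2 members within 1 library do not depend on how libraries are scaled, and 4 pairs of neighbours or relatives were compared. The aggrecan-cleaving pair Adamts4 and Adamts5 had a log2 ratio of counts of -4.85, -4.63, -4.35, -4.61 and -4.91 in young mice. In old mice the ratio was -5.33, -5.27, -5.64, -5.55 and -6.36. The groups did not overlap, and the mean differed by -0.96 (exact two-sided permutation test p = 0.00794, the smallest that 5 against 5 mice can give, 0.0317 after adjustment over the 4 pairs). The decrease of Adamts4 was thus also present relative to Adamts5.

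For the other 3 pairs the groups overlapped. The log2 ratio of Adamts7 to Adamts12 was higher by 0.53 in old mice (exact permutation p = 0.0873, adjusted 0.169). The ratio of Adamts8 to its neighbour Adamts15 was higher by 0.58 (exact permutation p = 0.127, adjusted 0.169). Old mouse 2 had a log2 ratio of -0.69 for this pair, against 0.33 to 0.64 in the other old mice. Without it the difference was 0.82 and passed the threshold (exact permutation test, adjusted p = 0.0317). The ratio of Adamts1 to its neighbour Adamts5 differed by -0.40 (exact permutation p = 0.214).

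**Figure D3:**
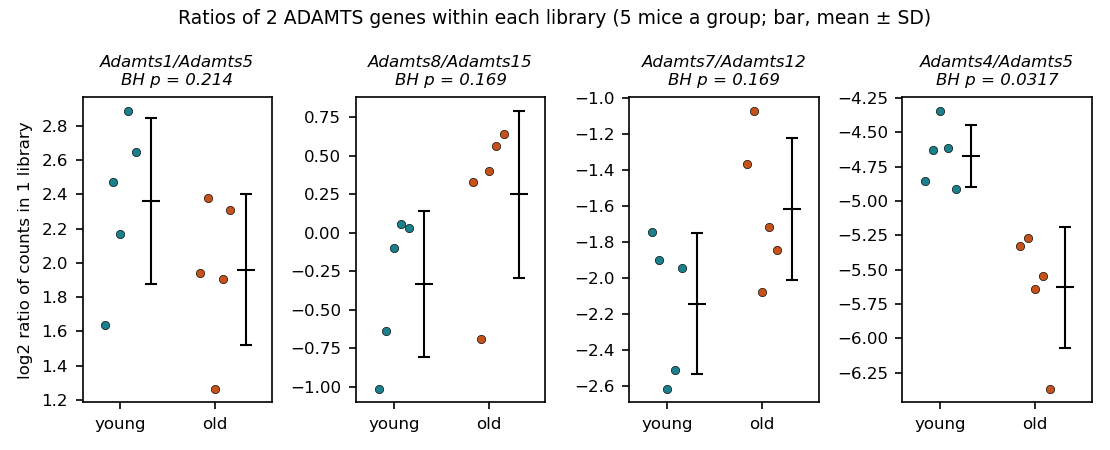
Log2 ratio of the counts of 2 ADAMTS genes in each library (y axis, a separate scale in each panel) for 5 young and 5 old mice, with the mean and SD beside each group and the exact permutation p adjusted over the 4 pairs above. Only for Adamts4 over Adamts5 are the groups separate, and old mouse 2 lies at -0.69 in the panel of Adamts8 over Adamts15.

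The members were next compared over the 10 mice after each group's mean had been removed, which shows how they vary among mice of the same age. Of 36 pairs, 20 were positively correlated, and 1 passed adjustment over the 36. Adamts15 and Adamts10 varied together (Pearson r = 0.87, exact permutation p = 0.000764, adjusted 0.0275; Spearman rho = 0.84, exact permutation p = 0.00368, adjusted 0.133). Young mouse 1 and old mouse 2 were the highest in both genes within their groups, and without these mice r was 0.73. The correlation was also seen within each group, with r of 0.98 in young and 0.86 in old mice. Adamts15 and Adamts12 varied in opposite directions (r = -0.80, exact permutation p = 0.0198, and rho = -0.73, p = 0.0455), a value that did not pass adjustment (adjusted p = 0.356 for r and 0.546 for rho), and in young mice alone r was -0.22. Adamts9 and Adamts12 did not pass either (r = -0.66, exact permutation p = 0.0324, adjusted 0.389, and rho = -0.78, p = 0.0204, adjusted 0.368).

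**Figure D4:**
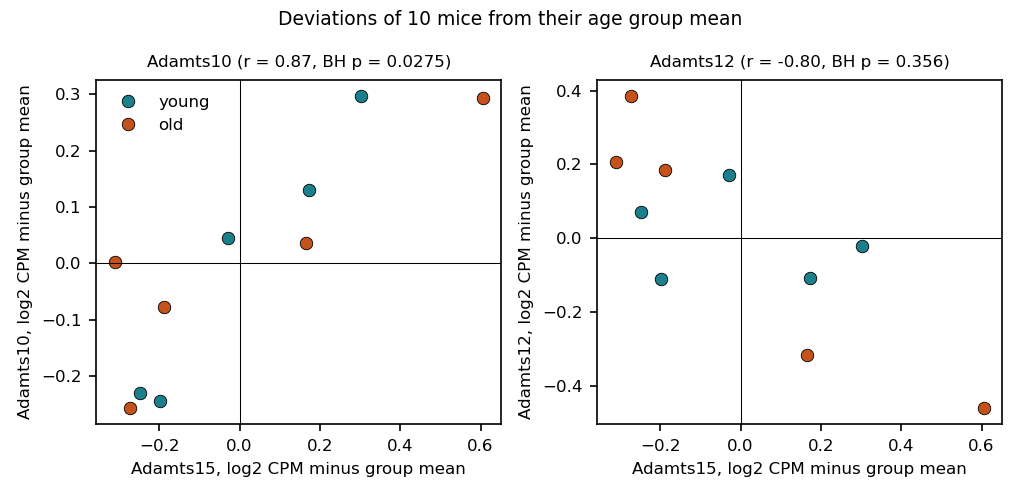
Deviation of each of 10 mice from its age group's mean (log2 CPM) for Adamts15 (x axis) against Adamts10 (left) and Adamts12 (right), 1 point per mouse. Adamts10 follows Adamts15 (r = 0.87) and Adamts12 falls as Adamts15 rises (r = -0.80, which did not pass adjustment).

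The genes whose deviations were most like those of the called members were found by Pearson r over the same 10 mice among 14613 other tested genes, as a description. For Adamts4 they were Trim41 (r = 0.96), Inpp5b (0.94) and U2surp (0.92). For Adamts12 they were Dctn6 (r = 0.98), the costimulatory receptor ligand Cd86 (0.96) and 3830403N18Rik (0.95). Cd86 was called higher in old mice (log2 fold change 0.76, edgeR adjusted p = 0.0188), whereas the other 2 were not called (0.03 and 0.01). Trim41, Inpp5b and U2surp were not called either (0.11, -0.14 and -0.01). No p-value was computed for these correlations, and the highest of 14613 values over 10 mice can be high among unrelated genes.

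Among the 10 ADAMTS genes that are not members, 6 were tested, 2 were called lower and none higher. Adamts2, which removes the amino-terminal propeptide of fibrillar procollagens, fell from 9104 ± 1087 to 6540 ± 1190 normalized counts (SD, n = 5; log2 fold change -0.47, SE 0.12, edgeR adjusted p = 0.0274). Adamts17, a relative of the microfibril-associated members, fell from 21.7 ± 3.04 to 6.63 ± 1.98 normalized counts (log2 fold change -1.67, SE 0.27, adjusted p = 0.00173), with no overlap between the groups. Over the whole family of 19 genes, 15 were tested, of which 4 were called lower and none higher, against 4.99% and 6.48% of all tested genes.

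The ADAMTS-like proteins resemble ADAMTS enzymes but lack the protease domain, and several bind microfibrils. Of 7 tested genes, 2 were called lower and 1 higher, against 4.99% and 6.48% of all tested genes. Adamtsl2 fell (log2 fold change -1.18, SE 0.29, edgeR adjusted p = 0.0267), with 353 to 979 normalized counts in young and 169 to 381 in old mice. Without old mouse 2, the lowest, its log2 fold change was -1.03 (adjusted p = 0.0346). Adamtsl4 fell by 0.39 on the log2 scale (adjusted p = 0.00540), and Adamtsl5 rose by 0.38 (adjusted p = 0.00140). The fibrillin gene Fbn1 fell as well (log2 fold change -0.57, SE 0.10, adjusted p = 0.00296), although the gene Gm9913 overlaps 20.1% of its exonic sequence.

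Transcripts of the matrix proteins that the members cleave or bind were called in both directions. Of 15 tested substrate genes, 3 were called higher, 3 lower and 9 neither way, against 11.5% of all tested genes called, and their median log2 fold change was -0.02. Aggrecan (Acan) rose from 503 to 910 normalized counts in young mice to 963 to 1396 in old mice, without overlap (log2 fold change 0.76, SE 0.14, edgeR adjusted p = 0.00526). Versican (Vcan) rose by 0.42 (SE 0.12, adjusted p = 0.0448) and cartilage oligomeric matrix protein (Comp) by 0.46 (SE 0.12, adjusted p = 0.0320), with overlapping groups. The link protein Hapln1, which fastens these proteoglycans to hyaluronan, rose from 120 ± 17.6 to 281 ± 37.6 normalized counts (SD, n = 5; log2 fold change 1.23, SE 0.13, adjusted p = 8.2e-05). It was the only one called of 7 tested genes of the hyaluronan matrix. Besides Fbn1, the basement membrane gene Nid2 (-0.40, adjusted p = 0.04995) and the syndecan Sdc4 (-0.46, adjusted p = 0.0345) fell. The calls of Vcan, Comp, Nid2, Sdc4, Adamts2 and Adamtsl2 were lost in 7 to 13 of 20 alternatives, those of Acan, Hapln1, Fbn1, Adamts17, Adamtsl4 and Adamtsl5 in none of the 20.

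Genes that control the activity, uptake or activation of some of the enzymes were tested as a further list. Of 11 tested, 1 was called, against 11.5% of all tested genes. That gene was the membrane-type matrix metalloproteinase Mmp17, known as an activator of Adamts4, and it fell by 0.42 on the log2 scale (SE 0.10, edgeR adjusted p = 0.0133). The mean of the inhibitor Timp3 was 41190 ± 3282 normalized counts in the young group and 40632 ± 4759 in the old group (SD, n = 5 mice each), and its log2 fold change was -0.01 (95% confidence interval -0.21 to 0.18). The sign of that value turned positive under 2 of the scalings. Exons of Syn3 overlap 21.3% of the exonic sequence of Timp3. The uptake receptor Lrp1 (log2 fold change -0.08, edgeR adjusted p = 0.583) and Furin, a protease that removes the propeptide (-0.12, adjusted p = 0.194), were not called.

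**Figure D5:**
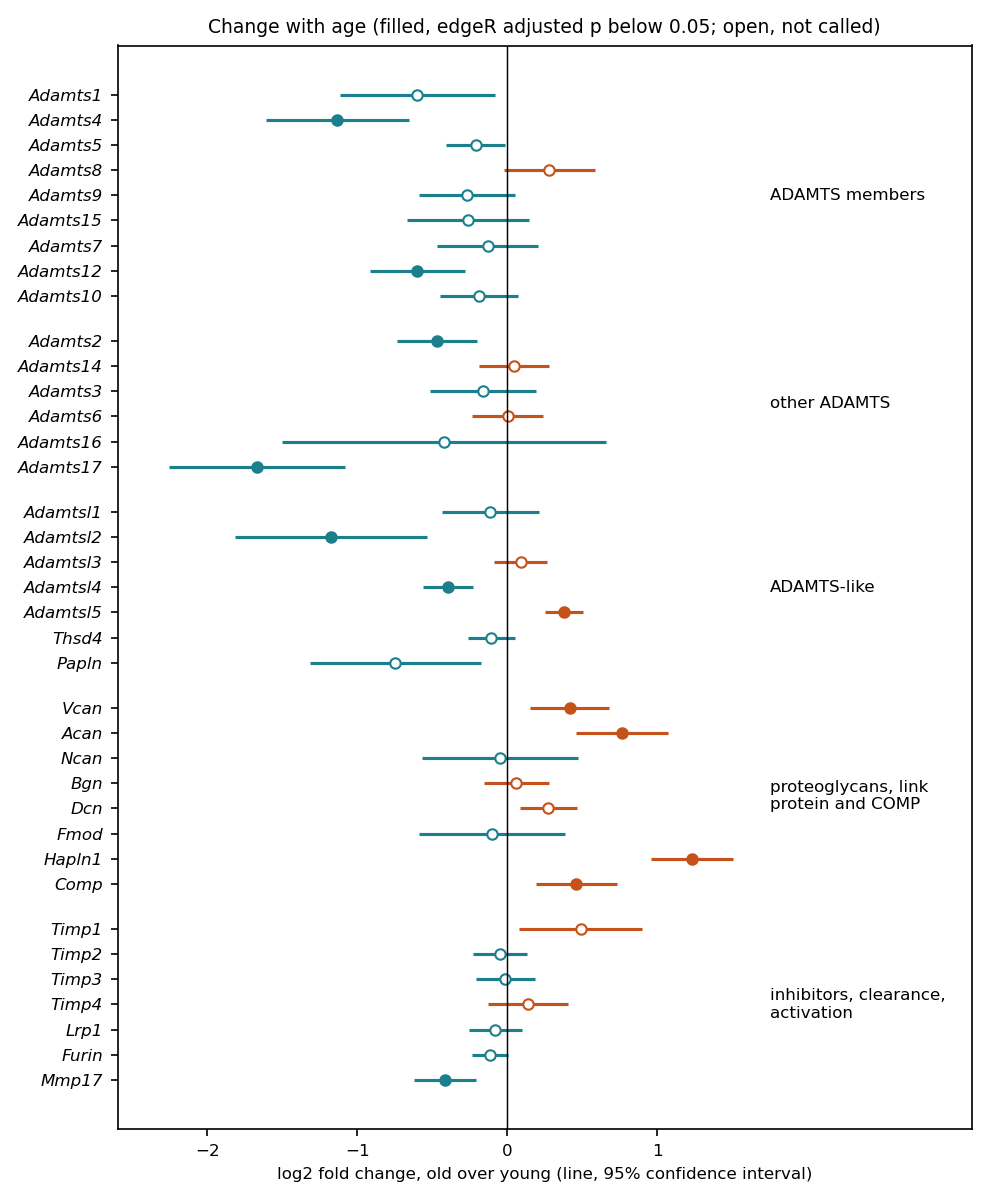
Log2 fold change of old over young (x axis) with its 95% confidence interval for the 9 members and for other ADAMTS, ADAMTS-like, proteoglycan and regulator genes, with filled points where edgeR's adjusted p was below 0.05. Adamts4, Adamts12, Adamts2, Adamts17, Adamtsl2, Adamtsl4 and Mmp17 are filled on the negative side. Acan, Vcan, Comp, Hapln1 and Adamtsl5 are filled on the positive side. The substrate genes that were called lower, Fbn1, Nid2 and Sdc4, are not drawn.

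Levels of other genes that moved between the groups are given beside these changes, and their part in the results was not tested. The summed level of 17 immediate early genes, a list that was mostly 1 gene by level, fell from a range of 5334 to 7673 CPM in young to 3113 to 4978 CPM in old mice (exact permutation p = 0.00794, adjusted over 10 lists 0.0397, and up to 0.0794 when a mouse was left out). Ccn2 made up 44.9% to 74.6% of the sum in young and 52.9% to 69.7% in old mice, and without it the sum did not pass (exact permutation p = 0.127, adjusted 0.238). Exons of Gm15270 overlap 23.2% of the exonic sequence of Ccn2. The mean was higher in old mice for 5 of the 17 genes and lower for 12. Of these 17 genes 3 were called lower and 1 higher, against 4.99% and 6.48% of all tested genes. Among those called were Atf3 (log2 fold change -2.28), Ccn2 (-0.76) and Junb (0.77). After removal of the group means, no correlation of this sum with any of the 9 members passed adjustment (smallest adjusted p = 0.498 for r and 0.209 for rho, exact permutation). The smallest for rho was that of Adamts4 (r = 0.47, exact permutation p = 0.221, and rho = 0.75, p = 0.0232), where without Ccn2 rho was 0.68 (exact permutation p = 0.0283, adjusted 0.238). Without Ccn2 the highest values were those of Adamts5 (r = 0.64, exact permutation p = 0.0800, and rho = 0.72, p = 0.0528, adjusted 0.493 and 0.238). For Adamts1 r was 0.58 and rho 0.38 (exact permutation p = 0.118 and 0.306), and without Ccn2 in the sum r was 0.17 and rho -0.07 (exact permutation p = 0.647 and 0.876).

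Summed markers of smooth muscle (exact permutation p = 0.484), fibroblasts (p = 0.952) and Schwann cells (p = 0.548) showed no difference that passed. Within these lists Smtn was called higher, at an edgeR adjusted p of 0.0217, and for fibroblasts Lum was higher (log2 fold change 0.58, adjusted p = 0.00296) and Pi16 lower (-0.58, adjusted p = 0.0147). Old mouse 2 had the lowest smooth muscle sum, and the other 4 old mice ranged from 38971 to 40499 CPM. Endothelial markers were 855 to 1517 CPM in young and 443 to 1014 CPM in old mice (exact permutation p = 0.0317, adjusted 0.0794), with 1 of 5, Tek, called lower. Old mouse 2 alone overlapped the young mice. Without it the old mice ranged from 443 to 734 CPM, and the difference passed (exact permutation p = 0.0159, adjusted 0.0397). When any other mouse was left out, the endothelial difference did not pass (exact permutation, adjusted p = 0.0926 to 0.159). Macrophage markers were 260.1 to 367 and 357 to 738 CPM (exact permutation p = 0.0159, adjusted 0.0529), with 2 of 5, Cd68 and Adgre1, called higher. Without old mouse 5 the groups were separate (exact permutation p = 0.00794, adjusted 0.0397), and without old mouse 2 they overlapped at the same p as with all mice (0.0159), adjusted to 0.0397 beside the lower p of the endothelial sum. When any other mouse was left out, the macrophage difference did not pass (exact permutation, adjusted p = 0.0529 to 0.132). The groups were also separate without young mouse 1 (adjusted p = 0.0595 in that test). Markers of cartilage cells rose from 2.75 to 4.63 CPM in young mice to 5.50 to 10.4 CPM in old mice (exact permutation p = 0.00794, adjusted 0.0397, and up to 0.0794 when a mouse was left out), with 1 of 3 tested genes, Sox9, called. The mean of Sox9, a transcription factor also made outside cartilage, was 46.7 normalized counts in the young group and 93.2 in the old group. The cartilage collagen Col2a1, at 115.6 in old mouse 3 and 9.81 to 37.0 in the other old mice, was not called (edgeR adjusted p = 0.108), nor was Matn3 (adjusted p = 0.552). The untested Col9a1 and Matn1 had means of 3.82 and 0.40 in young and 1.93 and 0.37 in old mice. Summed fat, lymphocyte and striated muscle markers did not pass. Of 3 tested lymphocyte genes 1 was called, Cd3g, which was higher in every old mouse than in any young mouse (0 to 8.97 normalized counts in young and 11.0 to 38.2 in old mice, edgeR adjusted p = 0.0121). Over all tested genes, 4.99% were called lower and 6.48% higher.

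Promoter sequence was matched for 3 of the 9 members (RefSeq, GRCm38.p6). The 250 bases before the start of Adamts12, the called member with a sequence at hand, and of Adamts1, the most abundant member, are shown with matches to 7 short motifs in capitals. They lie at chr15:11064523-11064772 on the plus strand and at chr16:85803114-85803363 on the minus strand.
Adamts12: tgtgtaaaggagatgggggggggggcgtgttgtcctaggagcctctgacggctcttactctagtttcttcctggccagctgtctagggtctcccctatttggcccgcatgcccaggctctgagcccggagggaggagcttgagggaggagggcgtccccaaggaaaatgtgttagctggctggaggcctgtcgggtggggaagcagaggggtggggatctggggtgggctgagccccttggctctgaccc
Adamts1: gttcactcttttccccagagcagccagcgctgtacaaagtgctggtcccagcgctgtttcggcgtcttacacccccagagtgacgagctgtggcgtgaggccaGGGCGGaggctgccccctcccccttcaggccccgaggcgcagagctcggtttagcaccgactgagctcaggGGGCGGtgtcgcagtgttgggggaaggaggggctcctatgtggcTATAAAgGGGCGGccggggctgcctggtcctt

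The motifs, searched on both strands, were TGACTCA (AP-1), TGACGTCA (the cAMP response element), the CArG box, GAANNTTC (the heat shock element core), TTATGTAA (the D-box), GGGCGG (the GC box) and TATAAA. The Adamts12 stretch held none of the 7. The Adamts1 stretch held 3 GC boxes, beginning 147, 76 and 25 bases before the start, and TATAAA at 32 bases. A GC box was present in 32.7% and TATAAA in 12.4% of the 32851 promoters of the same length. That of Adamts9, at chr6:92943535-92943784, held 1 GC box. No AP-1 site, found in 4.46% of promoters, was present in these windows of the 3 genes.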

How the data were processed

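Total RNA was taken from 10 aortae, 5 in each age group, and libraries were made with a stranded mRNA kit. The authors trimmed reads with fastp 0.20.0, aligned them to GRCm38 with STAR 2.7.0f and counted them per gene with featureCounts (Subread 1.6.4). The deposited values are these whole-number counts, without normalization. The strand setting and the treatment of reads with several alignments are not given in the sources used here. Groups were taken from the labels.

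Counts were filtered with filterByExpr, which kept 14614 of 28011 genes with a count, and compared with edgeR 4.0.16 (quasi-likelihood F test, robust, TMM scaling, R 4.3.3). Adjustment followed Benjamini and Hochberg over all tested genes. For normalized counts, each library was scaled by its DESeq2 1.42.0 size factor. TPM values used exonic lengths of GENCODE M21, where 54471 symbols matched; the authors used a later release of the same build. Ratios were log2 of count + 0.5. Values with 1 number per mouse were tested by exact two-sided permutation, and correlations by all 14400 joint reorderings of the mice within each group.

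Alternatives were DESeq2, limma-voom 3.58.1 with and without sample quality weights, 3 other scalings, 2 other filters, the replicate number as a block, a correction for GC content and length (mgcv 1.9.3), and leaving out 1 mouse at a time. On simulated counts for the 14614 genes, with 200 changed by a fold of 2, 165 changed genes and 6 others passed in edgeR, 169 and 23 in DESeq2, and 165 and 4 in limma-voom. Depth was 19640401 to 22886153 counts per library, and standard errors hold both counting error and differences between mice. Pairs of libraries within a group differed 8.06 to 58.8 times more than expected from counting error (chi-square divided by degrees of freedom), so that each library was kept as a sample of its own.

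The members, lists and tests were chosen with earlier results of these data known. The genes named are all 9 members, every called gene of the related ADAMTS, substrate, hyaluronan and regulator lists, Vcan, Acan, Timp3, Lrp1 and Furin, up to 3 called genes of smallest p from the immediate early and marker lists, and the 3 genes most like each called member. The other cartilage markers were named after their values were seen.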

Additional observations from a re-analysis of the deposited data

Results flagged for a closer look

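By Dixon's test no single mouse was set apart in any of the 9 members. In 10 of 78 groups of 5 mice that were examined, the highest or lowest mouse lay apart from the other 4 by more than the 95% limit of that test, which chance gives in about 1 of 20 groups. The log2 ratio of Adamts8 to Adamts15 was -0.69 in old mouse 2. That mouse was also lowest in its group for Adamtsl2 (169 normalized counts, next 324), for Timp3 (32208 normalized counts, next 42017) and for the summed smooth muscle markers (33586 CPM, next 38971). Its library had the highest mitochondrial share. Sdc4 was highest in old mouse 1 (3892 normalized counts, next 3214). In old mouse 3 the macrophage markers summed to 738 CPM (next 448) and the lymphocyte markers to 13.9 CPM (next 4.43). Young mouse 1 was highest for fibroblast markers (1698 CPM, next 1425) and Schwann cell markers (54.2 CPM, next 25.5), and young mouse 2 for striated muscle markers (44.7 CPM, next 9.68).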

How the results depend on the processing

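Under the 20 alternatives, Adamts4 kept its direction and its call in all 20 (log2 fold change -1.23 to -0.98), and Adamts12 in 19 (-0.70 to -0.50), the exception being the omission of young mouse 4. The signs of all 9 members were the same in every alternative. The number of members called was 2 in 18 alternatives, 3 with sample quality weights, and 1 to 2 when a mouse was left out. Over all genes, 1676 calls became 2643 with sample quality weights, and 1132 to 2367 when a mouse was left out. The share of calls that were higher was 56.5%, against 63.6% with upper quartile factors, 62.7% with library size alone, 63.0% with the block and 46.9% with the correction for GC content and length. The difference in the Adamts8 to Adamts15 log2 ratio ranged from 0.41 to 0.82 when a mouse was left out, the highest being without old mouse 2. Timp3 turned positive with upper quartile factors (0.0166) and library size alone (0.0159), and ranged from -0.0597 to 0.0566 when a mouse was left out. The adjusted p reached 0.0908 for Adamts2, 0.138 for Adamtsl2, 0.0993 for Vcan, 0.100 for Comp, 0.0930 for Nid2 and 0.119 for Sdc4. Leaving out young mouse 4 ended all 6 of these calls, and leaving out any other mouse ended at least 1. Ccn2 and Atf3 reached 0.0670 and 0.0703. The cause was not tested. The alternatives for the summed lists were added after the data were seen. The difference in the immediate early sum was -792 CPM without Ccn2, and -2813 to -2228 CPM when a mouse was left out. Its adjusted p was above 0.05 without young mouse 1, 4 or 5 or old mouse 1, 3, 4 or 5, and that of the cartilage sum without the same mice other than old mouse 5 (up to 0.0794 for each). With 4 against 5 mice the smallest exact p is 0.00794, which becomes 0.0794 over 10 lists unless other lists are as low. The groups of the immediate early and cartilage sums stayed separate in each omission, with an exact permutation p of 0.00794 or 0.0159. The adjusted p alone therefore cannot tell instability from the smaller number of mice. The same smallest p holds for the endothelial and macrophage sums. When a mouse was left out, the difference was 3.103 to 4.34 CPM for cartilage, -535 to -341 CPM for endothelial, 88.4 to 184 CPM for macrophage, -56.6 to 51.4 CPM for fibroblast and -8.67 to 0.728 CPM for striated muscle markers.

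The deviations of same-numbered young and old mice from their group means had r of -0.30 to 0.13. So few values cannot decide whether the numbers pair the mice. With the replicate number as a block, 2 members were called again, with log2 fold changes of -1.16 for Adamts4 and -0.63 for Adamts12, and 1261 genes were called in all.

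Raw counts were lowest in Adamts4 and Adamts7. The 95% confidence intervals of members that were not called were widest for Adamts1 (-1.12 to -0.08), Adamts15 (-0.67 to 0.14) and Adamts7 (-0.47 to 0.21).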
